A study of Mus musculus with 6 samples.

Results

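The 9 genes described here, Foxp3, Ikzf2, Ikzf4, Ctla4, Tnfrsf18, Lrrc32, Nrp1, Capg and Itgae, are genes known for their activity in regulatory T cells. Every open-chromatin peak that carried the symbol of one of them in the deposited annotation was taken, whatever its level. That gave 138 peaks of 282898 in all, or of the 148063 that carried any symbol, and 9 genes of 19109. Accessibility was read out by ATAC-seq, which uses a transposase to cut open DNA and tag it for sequencing, in sorted T follicular helper (Tfh) cells of C57BL/6 mice. The 6 libraries were KO Tfh4, KO Tfh214 and KO Tfh21 from Stat6 knockout (KO) mice and WT Tfh4, WT Tfh214 and WT Tfh21 from mice with intact Stat6 (WT), all untreated. Each library was a pool of 50000 cells taken ex vivo, with 10 mice used for a genotype, and each combination of genotype and population had 1 library. The sources used here do not give the age of the mice, the tissue, the Stat6 allele, or the markers and gates behind the names Tfh21, Tfh214 and Tfh4. Whether cells expressing Foxp3 were removed in the sort is not given either.

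Regulatory T cells restrain immune responses, and their identity rests on the transcription factor Foxp3. Many of their surface receptors, among them CTLA-4 and GITR, are also made by activated conventional T cells, and a follicular kind of regulatory T cell shares the germinal centre with Tfh cells and restrains them. Stat6 is the transcription factor activated by interleukin 4. In an accessible gene the transposase leaves most cuts at the promoter and at enhancers, so reads in peaks report openness of DNA and not the amount of transcript.

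Promoter sequences were at hand for 5 of the 9 genes, from RefSeq (build GRCm38.p6, newer than the mm9 of the peaks, so positions of promoters and peaks cannot be set against each other). Shown are the 250 bases before the start site for Ctla4 and Tnfrsf18, which had a peak at their start site, and before both RefSeq starts of Foxp3, which had none. Capitals mark a match to the spaced STAT-type motif TTCNNNGAA.
Ctla4, chr1:60908775-60909024, plus strand: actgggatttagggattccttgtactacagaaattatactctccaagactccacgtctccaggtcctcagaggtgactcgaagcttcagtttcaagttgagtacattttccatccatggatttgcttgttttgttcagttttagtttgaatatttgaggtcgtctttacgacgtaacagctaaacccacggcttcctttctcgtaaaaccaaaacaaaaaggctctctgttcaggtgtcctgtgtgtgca
Tnfrsf18, chr4:156026072-156026321, plus strand: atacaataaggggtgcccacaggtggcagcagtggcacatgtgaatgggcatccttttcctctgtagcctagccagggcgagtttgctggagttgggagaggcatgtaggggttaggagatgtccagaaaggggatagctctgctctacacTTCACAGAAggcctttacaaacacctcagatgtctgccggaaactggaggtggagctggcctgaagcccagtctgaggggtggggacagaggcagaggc
Foxp3, chrX:7579426-7579675, plus strand: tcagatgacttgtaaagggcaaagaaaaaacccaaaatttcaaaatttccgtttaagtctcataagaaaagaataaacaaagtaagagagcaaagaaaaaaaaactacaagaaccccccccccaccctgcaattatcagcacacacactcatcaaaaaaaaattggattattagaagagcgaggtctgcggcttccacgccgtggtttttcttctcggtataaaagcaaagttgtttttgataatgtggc
Foxp3, chrX:7580233-7580482, plus strand: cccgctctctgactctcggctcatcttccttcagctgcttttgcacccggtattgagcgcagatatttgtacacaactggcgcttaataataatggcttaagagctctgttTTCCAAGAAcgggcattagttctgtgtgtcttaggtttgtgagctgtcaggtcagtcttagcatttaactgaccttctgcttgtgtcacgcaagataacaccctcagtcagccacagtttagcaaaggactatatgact
Of the 6 promoters of these genes in the table, the window of 250 bases before and 50 after the start was searched on both strands for TTCNNNGAA, for the wider spacing TTCNNNNGAA that Stat6 prefers, for the forkhead motif TGTTTAC and for the Runx motif TGTGGT. TTCNNNGAA was found in Tnfrsf18 at position -99 and in 1 Foxp3 promoter at position -139, where the start site is 0 and the position is that of the first base of the match. The other 3 motifs had no match in the 6 windows. Over all 32851 promoters of that length, TTCNNNGAA was present in 8.30%, TTCNNNNGAA in 6.95%, TGTTTAC in 3.65% and TGTGGT in 16.8%. The palindromic motifs read the same on both strands, and the 2 STAT-type motifs differ by 1 base of spacing and cannot match at the same start. The promoters of Ikzf2, Ikzf4, Lrrc32 and Itgae are not shown.

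Between 798555 reads in peaks (KO Tfh214) and 1373218 (WT Tfh4) were recovered per library. Values are CPM as deposited, that is, reads scaled to the same total in every library. Reads at start sites (TSS) took 29.7 to 36.4% of KO and 27.6 to 31.5% of WT libraries, and the share was lowest in Tfh4 in both genotypes. A second scaling, by median-of-ratios size factors, applies a single factor to all peaks of a library. It therefore leaves the share of reads at start sites as it was. For KO against WT, the median log2 difference of the strong peaks that were tested went from 0.19 to 0.004. The median ratio over all peaks went from 0.938 to 0.826, further from 1. The second scaling thus brought the tested strong peaks, and not all peaks, near to no difference. It moved the median log2 difference of all genes by -0.19 for KO against WT, by 0.28 for Tfh4 against Tfh21, by 0.04 for Tfh214 against Tfh21 and by 0.24 for Tfh4 against Tfh214, and its values stand beside the CPM ones at the gene ratios whose direction depends on it. After it, the median log2 differences of all genes were -0.11, 0.16, 0.01 and 0.16 for these contrasts in that order. Values of cell type markers, of related genes, and of single peaks where no scaled value is named, are by CPM alone. All 7 T cell markers and all 8 Tfh markers had peaks. Summed, T cell markers averaged 352 CPM in Tfh4, 395 in Tfh214 and 408 in Tfh21, with 337 to 459 CPM in KO and 348 to 366 CPM in WT libraries. Tfh markers averaged 440.2 CPM in Tfh4, 569 in Tfh214 and 557 in Tfh21, with 446 to 608 CPM in KO and 434 to 539 CPM in WT libraries. Of 8 B cell markers, 6 had a peak, with none listed for Ms4a1 and Cd79a, and their summed level was 118 to 140 CPM in KO and 133 to 178 CPM in WT libraries. By population it averaged 154 CPM in Tfh4, 156 in Tfh214 and 125 in Tfh21. Of the CD8 T cell markers Cd8a had none and Cd8b1 stood at 3.81 to 12.1 CPM in KO and 7.86 to 13.1 CPM in WT libraries, highest in Tfh4 in both genotypes. For NK cells, 2 of 4 markers had a peak (8.77 to 14.3 CPM in KO, 8.91 to 11.8 CPM in WT). For myeloid cells, 6 of 7 listed symbols had one (98.9 to 108 CPM in KO, 98.3 to 113 CPM in WT). The symbol without one, Emr1, is a former name of Adgre1, which is among the 6. The order of populations in these marker sums was not computed under the second scaling and may depend on it. The part of such cells, and of the differing Tfh marker levels, in the values below was not tested.

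The 138 peaks held 3212 reads over the 6 libraries. They lay mostly inside genes, with 108 in introns (78.3%, against 53.9% of all peaks with a symbol), 15 in coding exons, 8 in untranslated exons, 2 at transcript ends and 5 at a start site (3.62%, against 13.5%). The median peak held 15.5 reads, against 14 for all peaks with a symbol, and 113 of the 138 held under 30. A start-site peak was listed for 5 of the 9 genes (55.6%, against 72.2% of all genes), namely Ctla4, Ikzf4, Tnfrsf18, Lrrc32 and Capg. Ikzf2 with 58 peaks and Nrp1 with 48, the longest genes of the set, supplied most of the peaks. Only Ikzf2, Nrp1, Capg, Ctla4, Ikzf4 and Itgae reached the mean of 20 reads per library required for a test. Foxp3, Tnfrsf18 and Lrrc32 did not.

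Per kilobase of peak that carried the gene's symbol, Capg was highest at a mean of 29.4 CPM per kb over the 6 libraries (25.1 to 32.5). Its percentile among all genes was 91.4. Ctla4 followed at 26.0 (20.1 to 34.1; percentile 88.2) and Tnfrsf18 at 18.4 (6.77 to 26.7). Ikzf4 stood at 10.7 (6.88 to 13.3), Ikzf2 at 8.05 (7.37 to 9.79), Nrp1 at 6.32 (5.61 to 6.84), Itgae at 6.32 (5.04 to 7.47) and Lrrc32 at 5.04 (3.17 to 7.20). Foxp3 closed the order at 3.04 CPM per kb (1.398 to 6.34; percentile 1.46). Of neighbours in this order, only Ikzf2 and Nrp1 had ranges that did not overlap over the 6 libraries. The ranges of Capg and Ctla4 lay above those of the other genes save Tnfrsf18, and the range of Foxp3 overlapped only those of Lrrc32, Itgae and Nrp1. This order has limits, since many weak peaks lower the value of a gene. Ikzf2 had 58 peaks (median 15.5 reads) and Nrp1 48 (median 14), against 4 for Capg (median 47.5). Strong peaks near a start without the member's symbol are left out, with 217 reads at Ikzf2 and 148 at Nrp1. The order is thus one of the listed peaks and not of whole loci.

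**Figure D1:**
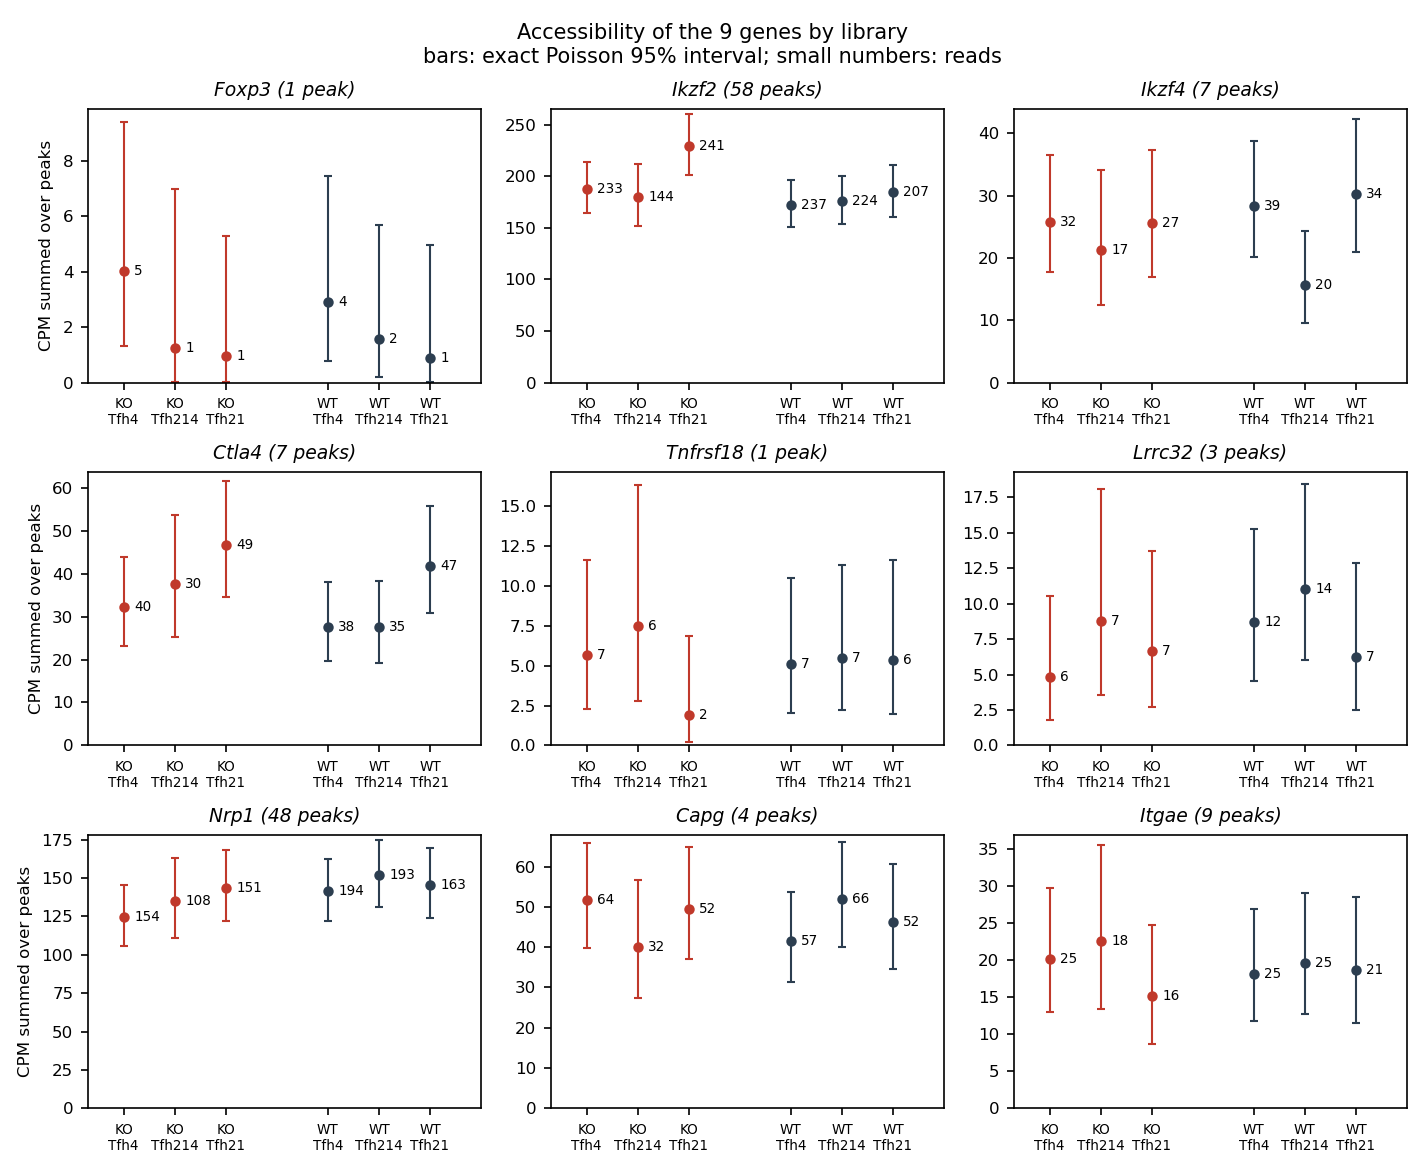
Accessibility of each gene in each library, as CPM summed over its peaks (vertical axis, from 0), with KO libraries in red and WT libraries in dark blue. Bars are exact Poisson 95% intervals for counting error and small numbers give reads. Foxp3 held 1 to 5 reads per library, Ctla4 was highest in Tfh21 in both genotypes, and Ikzf4 was lowest in Tfh214 in both.

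Foxp3, the master transcription factor of regulatory T cells, was represented by a single peak of 14 reads (chromosome X, 7160567 to 7161204, mm9), in an exon of its 5' untranslated region 3.77 kb after the listed start. It held 5, 1 and 1 reads in KO Tfh4, KO Tfh214 and KO Tfh21, and 4, 2 and 1 reads in WT Tfh4, WT Tfh214 and WT Tfh21. In CPM these were 4.04, 1.25 and 0.951 in KO and 2.91, 1.57 and 0.891 in WT. Both Tfh4 libraries held the most reads, but at these counts the Poisson interval of KO Tfh4 (1.31 to 9.42 CPM) overlapped that of WT Tfh21 (0.0226 to 4.96 CPM). The pooled ratio was 3.75 for Tfh4 over Tfh21, on 9 and 2 reads, with an interval from 0.775 to 35.6. For KO over WT it was 1.22 (0.365 to 4.08) on 7 reads each, so neither difference was detectable at this depth. For comparison, the start-site peak of Ppp1r3f, at -4.81 kb from the Foxp3 start, held 240 reads over the 6 libraries and gave 0.902 (0.691 to 1.17) for KO over WT. No start-site peak carried the Foxp3 symbol, and whether the few reads come from a small number of Foxp3-expressing cells or from low openness in all cells cannot be told apart in bulk samples. The same holds for every level below.

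Ikzf2 encodes Helios, an Ikaros-family factor of most thymus-derived regulatory T cells that also stabilises their programme. Its 58 peaks summed to 233, 144 and 241 reads in KO Tfh4, KO Tfh214 and KO Tfh21 and to 237, 224 and 207 reads in WT Tfh4, WT Tfh214 and WT Tfh21. Scaled for depth, these were 188, 180 and 229 CPM in KO and 173, 176 and 184 CPM in WT. By CPM, KO Tfh21 stood above the other libraries, which lay between 173 and 188 CPM. This depends on the scaling. KO Tfh4 over KO Tfh21 was 0.820 (0.682 to 0.986) by CPM and 1.02 (0.851 to 1.23) when scaled by median of ratios. Pooled over populations, KO over WT was 1.13 (95% interval 1.01 to 1.26) by CPM and 0.994 (0.889 to 1.11) once scaled by median of ratios, so its direction depends on the scaling. By population the ratio was 1.09 (0.906 to 1.31) in Tfh4, 1.02 (0.825 to 1.27) in Tfh214 and 1.24 (1.03 to 1.505) in Tfh21 by CPM, and 0.971, 0.914 and 1.05 after scaling. Whether the populations differ in this was not tested. In the limma model over all 10825 genes the log2 difference, KO minus WT, was 0.16 ± 0.10 (SE; adjusted p = 0.564), against a median of 0.07 for all genes. Without the Tfh21 libraries it was 0.08. The log2 difference was -0.19 ± 0.13 for Tfh4 minus Tfh21 (limma adjusted p = 0.513) and -0.21 ± 0.13 for Tfh214 minus Tfh21 (limma adjusted p = 0.973). The Tfh4 one turned to 0.09 when scaled by median of ratios.

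Openness of Ikzf2 was strongest near its end and just after its start. Its strongest peak lay in intron 6 (chromosome 1, 69590747 to 69591235), 141 kb from the listed start, with 160 reads. It held 31, 18 and 35 reads in KO Tfh4, KO Tfh214 and KO Tfh21 and 25, 27 and 24 in WT Tfh4, WT Tfh214 and WT Tfh21. This was 1 of 2 member peaks with enough reads for the peak-wise limma model. There the log2 difference was 0.38 ± 0.20 for KO minus WT (limma adjusted p = 0.268; median of all tested peaks 0.19) and -0.31 ± 0.25 for Tfh4 minus Tfh21 (limma adjusted p = 0.397; median -0.27). Further peaks stood in the 3' untranslated exon (69584354 to 69584868, 80 reads), in intron 3 at 4.88 kb from the start (69726942 to 69727657, 76 reads), in coding exon 6 (69594988 to 69595339, 48 reads), in intron 6 (69591710 to 69592043, 42 reads) and in coding exon 3 (69729677 to 69729934, 42 reads). The 3' peak held 21 reads in Tfh4 and 32 in Tfh21, a ratio of 0.546 (0.299 to 0.977) by CPM and 0.666 (0.365 to 1.19) after scaling. A further intron 3 peak (69702231 to 69702817) held 15 KO and 15 WT reads. Just outside the gene, at -1.08 kb from the start, an intergenic peak that carried no symbol (69733612 to 69734309) held 217 reads, more than any Ikzf2 peak. It gave 1.28 for KO over WT (0.970 to 1.68) and 0.706 (0.502 to 0.990) for Tfh4 over Tfh21 by CPM, with no scaled value given here.

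**Figure D2:**
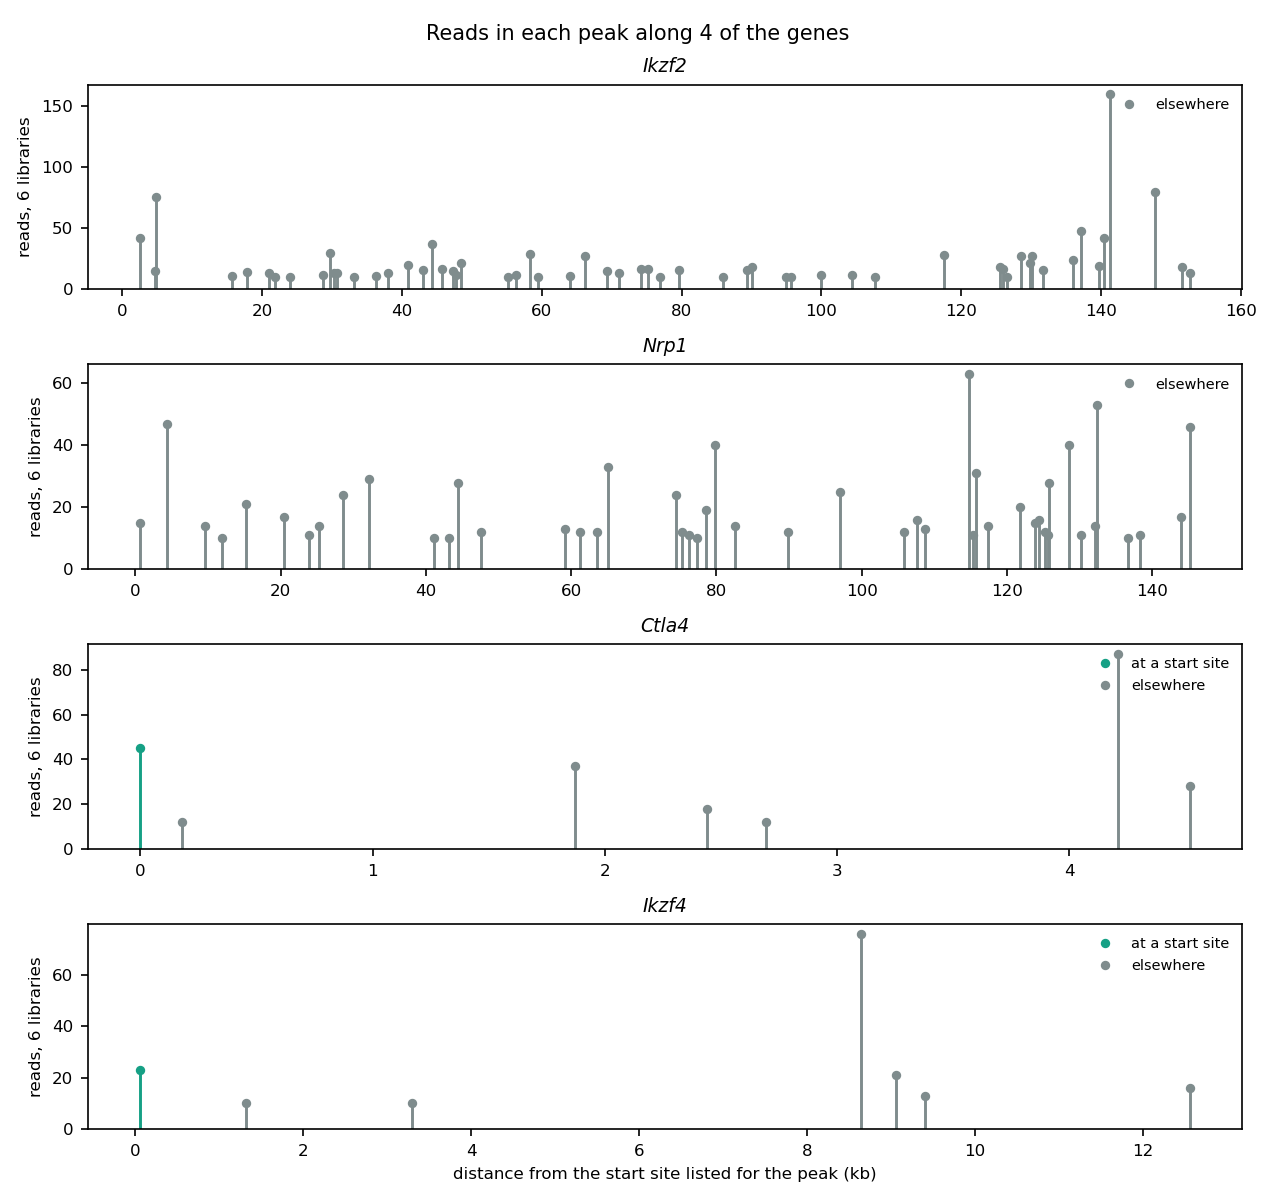
Reads over the 6 libraries (vertical axis) in every peak of Ikzf2, Nrp1, Ctla4 and Ikzf4, by distance in kb from the start site listed for the peak (horizontal axis). Green stems are peaks at a start site. Ikzf2 and Nrp1 show none, and the strongest Ikzf2 peak lies 141 kb into the gene, while Ctla4 and Ikzf4 have a start-site peak and a stronger one further in.

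Ikzf4 encodes Eos, an Ikaros-family partner of Foxp3 in gene repression. Its 7 peaks held 32, 17 and 27 reads in KO Tfh4, KO Tfh214 and KO Tfh21, and 39, 20 and 34 reads in WT Tfh4, WT Tfh214 and WT Tfh21. This is 25.8, 21.3 and 25.7 CPM in KO and 28.4, 15.7 and 30.3 CPM in WT. By CPM, Tfh214 was the lowest population in both genotypes, though its Poisson intervals overlapped those of the other populations. In KO they were 12.4 to 34.1 CPM for Tfh214 and 16.9 to 37.4 CPM for Tfh21. In WT they were 9.61 to 24.3 and 21.0 to 42.3 CPM. The share of all genes with such an order was not computed. Pooled over genotypes, Tfh4 over Tfh214 was 1.52 (1.01 to 2.33) on 71 and 37 reads by CPM, and 1.78 (1.18 to 2.72) after scaling by median of ratios. It was the only member interval in that comparison that lay above 1 under both. The median ratio over all genes itself moved from 0.983 by CPM to 1.15 after that scaling. Tfh214 over Tfh21 was 0.637 (0.412 to 0.974) on 37 and 61 reads, and 0.664 (0.429 to 1.02) after scaling. The limma model gave log2 differences of 0.54 ± 0.28 for Tfh4 minus Tfh214 (adjusted p = 0.517) and -0.58 ± 0.28 for Tfh214 minus Tfh21 (adjusted p = 0.953), so neither passed the threshold.

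By genotype, Ikzf4 in Tfh4 over Tfh214 was 1.21 (0.654 to 2.33) in KO and 1.81 (1.03 to 3.27) in WT. Tfh214 over Tfh21 was 0.829 (0.424 to 1.58) in KO and 0.519 (0.283 to 0.928) in WT. The intervals of the genotypes overlapped, and the difference between them was not tested. Without the WT Tfh214 library, the limma log2 difference was 0.24 for Tfh4 minus Tfh214 and -0.28 for Tfh214 minus Tfh21, and without KO Tfh214 it was 0.84 and -0.88. Within the gene, an intron 5 peak (chromosome 10, 128073997 to 128074407) supplied 76 of the 169 reads, 35 in Tfh4, 18 in Tfh214 and 23 in Tfh21. The start-site peak (128082744 to 128082990) held 23 reads. A coding exon 3 peak (128079461 to 128079751) held 1 KO and 9 WT reads, and 6 of those 9 came from WT Tfh21. Ikzf4 lies on the chromosome of the targeted gene, 974 kb from the last peak of Stat6. Its pooled KO over WT ratio was 0.997 (0.726 to 1.36).

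Ctla4 encodes the inhibitory receptor that competes with CD28 for B7 ligands and on which regulatory T cells depend. It was highest in Tfh21 in both genotypes. Its 7 peaks held 40, 30 and 49 reads in KO Tfh4, KO Tfh214 and KO Tfh21 and 38, 35 and 47 reads in WT Tfh4, WT Tfh214 and WT Tfh21. In CPM this was 32.3, 37.6 and 46.6 in KO and 27.7, 27.5 and 41.9 in WT. Both Tfh21 libraries lay above all 4 others by CPM, and the share of all genes with such an order was not computed. By CPM, the summed Tfh markers were lowest in Tfh4 and at like levels in Tfh214 and Tfh21. Their part in this was not tested. Pooled over genotypes, Tfh4 over Tfh21 was 0.676 (0.495 to 0.921) on 78 and 96 reads and Tfh214 over Tfh21 was 0.711 (0.511 to 0.984) on 65 and 96 reads. Scaled by median of ratios these were 0.824 (0.604 to 1.12) and 0.741 (0.533 to 1.03), with both intervals across 1. The median ratio over all genes itself moved with the scaling. It went from 0.970 to 1.18 for Tfh4 over Tfh21 and from 0.988 to 1.03 for Tfh214 over Tfh21. Within genotypes, Tfh4 over Tfh21 was 0.693 (0.445 to 1.07) in KO and 0.661 (0.419 to 1.04) in WT. Tfh214 over Tfh21 was 0.806 (0.494 to 1.295) in KO and 0.657 (0.412 to 1.04) in WT.

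In the limma model the log2 difference of Ctla4 was -0.55 ± 0.22 for Tfh4 minus Tfh21 (adjusted p = 0.315), which is -0.43 relative to the median of all genes. It was -0.45 ± 0.22 for Tfh214 minus Tfh21 (limma adjusted p = 0.953) and -0.42 relative to that median. Neither was called in any setting. Scaled by median of ratios they were -0.27 and -0.40, where the median of all genes was 0.16 and 0.01. KO over WT at Ctla4 was 1.17 (0.730 to 1.87) in Tfh4, 1.37 (0.810 to 2.29) in Tfh214 and 1.11 (0.731 to 1.70) in Tfh21 by CPM. After scaling it was 1.04, 1.22 and 0.944, so in Tfh21 the direction depends on the scaling. The limma log2 difference, KO minus WT, was 0.27 ± 0.18 (adjusted p = 0.572), below the threshold for a call.

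The start-site peak (chromosome 1, 60965741 to 60965941) held 7, 6 and 6 reads in KO Tfh4, KO Tfh214 and KO Tfh21 and 8, 6 and 12 in WT Tfh4, WT Tfh214 and WT Tfh21. Its ratio was 0.694 (0.325 to 1.46) for Tfh4 over Tfh21 and 0.70 (0.308 to 1.54) for Tfh214 over Tfh21, close to those of the gene's sum but with wide intervals. An intron 1 peak at 1.87 kb from the start (60967740 to 60967907) held 12 reads in Tfh4, 13 in Tfh214 and 12 in Tfh21, with no population apart. A peak over coding exon 3 (60970080 to 60970388), the strongest of the gene at 87 reads, held 30 reads in Tfh4, 21 in Tfh214 and 36 in Tfh21, a Tfh4 over Tfh21 ratio of 0.694 (0.413 to 1.16). It abuts an intron 3 peak (60970388 to 60970542) with 5 reads in Tfh4 and 16 in Tfh21, a ratio of 0.260 (0.0745 to 0.743), and 0.317 (0.0909 to 0.906) after scaling. Joined into 1 region, an alternative chosen after the data were seen, they held 19, 14 and 27 reads in KO Tfh4, KO Tfh214 and KO Tfh21 and 16, 14 and 25 in WT Tfh4, WT Tfh214 and WT Tfh21. That region gave 0.560 (0.354 to 0.877) for Tfh4 over Tfh21 and 0.565 (0.344 to 0.912) for Tfh214 over Tfh21 by CPM. Tfh21 was again the highest population in both genotypes. An intergenic peak at -6.16 kb from the gene start (60959363 to 60959705, 76 reads) stood at 0.520 (0.282 to 0.938) in Tfh4 over Tfh21 by CPM. Scaled values for this peak and the joined region are not given here. For the gene's sum, scaling moved that ratio from 0.676 to 0.824 (0.604 to 1.12), and the median ratio over all genes from 0.970 to 1.18.

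**Figure D3:**
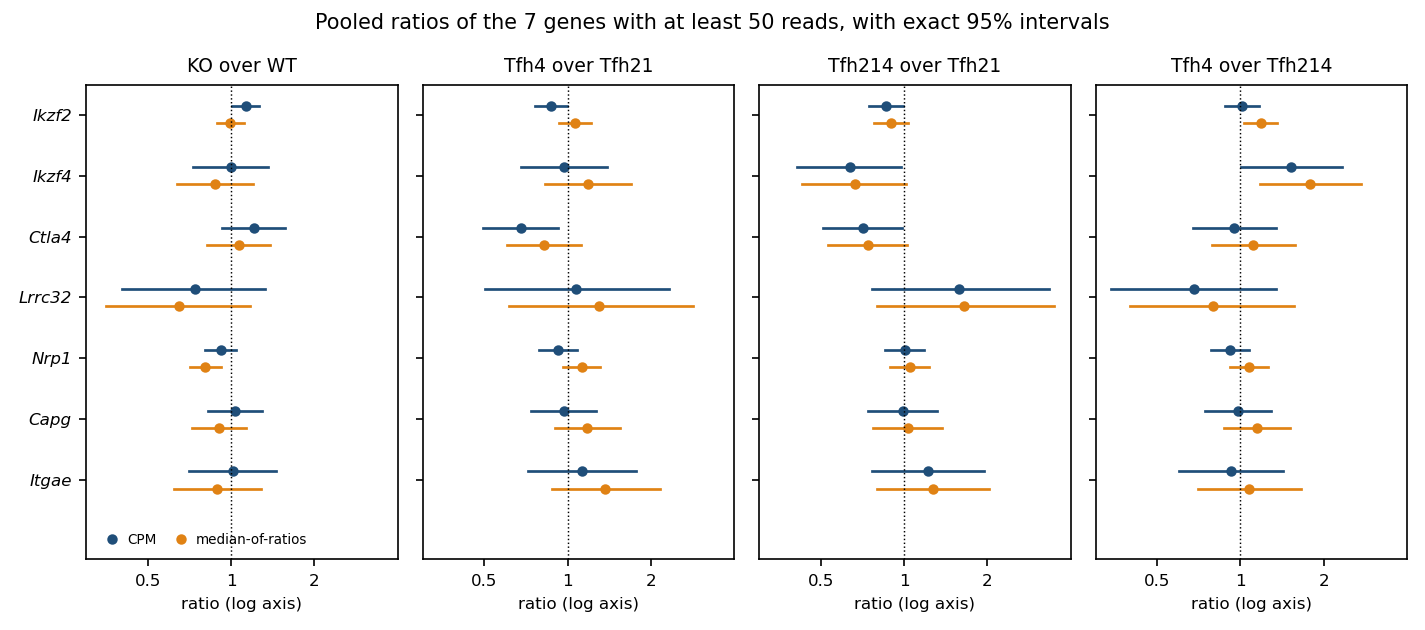
Ratios of pooled reads for the 7 genes with at least 50 reads, on a log axis, for KO over WT and for the population pairs, with exact 95% intervals for counting error. Blue points use CPM and orange points median-of-ratios scaling. Ctla4 lies below 1 for Tfh4 and Tfh214 over Tfh21 by CPM, and Ikzf4 lies above 1 for Tfh4 over Tfh214 under both scalings.

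Tnfrsf18 encodes GITR, a costimulatory receptor of the TNF receptor family carried at high level by regulatory T cells. Its single peak lay on the start site (chromosome 4, 155400244 to 155400525). It held 7, 6 and 2 reads in KO Tfh4, KO Tfh214 and KO Tfh21, and 7, 7 and 6 reads in WT Tfh4, WT Tfh214 and WT Tfh21. The KO Tfh21 library was the lowest, at 1.90 CPM against 5.10 to 7.51 CPM in the others, and the pooled KO over WT ratio was 0.915 (0.436 to 1.88). With 35 reads, a pooled ratio of Tfh4 over Tfh21 of 1.46 (0.570 to 4.01) was not distinguishable from 1. An intergenic peak without a symbol, downstream of the gene (155407446 to 155408056), held 51 KO and 41 WT reads, a ratio of 1.52 (0.986 to 2.35).

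Lrrc32 encodes GARP, which holds latent TGF-beta on the surface of activated regulatory T cells. Its 3 peaks held 6, 7 and 7 reads in KO Tfh4, KO Tfh214 and KO Tfh21 and 12, 14 and 7 reads in WT Tfh4, WT Tfh214 and WT Tfh21. KO over WT was 0.739 (0.402 to 1.33) on 20 and 33 reads. The strongest of its peaks, with 27 reads, covered coding exon 2 (chromosome 7, 105648439 to 105649118), and the start-site peak (105641873 to 105642335) held 10.

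Nrp1 encodes neuropilin-1, a co-receptor for semaphorins and VEGF that marks thymus-derived regulatory T cells in mice. Its 48 peaks summed to 154, 108 and 151 reads in KO Tfh4, KO Tfh214 and KO Tfh21 and 194, 193 and 163 reads in WT Tfh4, WT Tfh214 and WT Tfh21. In CPM these were 124, 135 and 144 in KO and 141, 152 and 145 in WT. KO was lower in each population, at 0.880 (0.708 to 1.09) in Tfh4, 0.891 (0.698 to 1.13) in Tfh214 and 0.989 (0.788 to 1.24) in Tfh21, though the ranges of the genotypes overlapped. The pooled ratio was 0.916 (0.804 to 1.04) by CPM and 0.807 (0.708 to 0.918) when scaled by median of ratios. After that scaling the median ratio over all genes was itself 0.895. The limma log2 difference was -0.12 ± 0.11 (adjusted p = 0.679). Scaled by median of ratios it was -0.31 (limma adjusted p = 0.119, the lowest of any member in any setting), where the median of all genes was -0.11.

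No Nrp1 peak held more than 63 reads (intron 9, chromosome 8, 130997804 to 130998133), and none lay at a start site under the Nrp1 symbol. Around the Nrp1 start, 3 peaks carry the symbol of the microRNA gene Mir1903 and are not among the 48. They held 148, 10 and 14 reads, and the strongest (130881889 to 130882700) has its near edge at -0.273 kb. The strongest gave 1.19 (0.848 to 1.66) for KO over WT, on the other side of 1 from the gene's sum. The next strongest Nrp1 peaks lay in intron 12 (131015405 to 131016100, 23 KO and 30 WT reads), in coding exon 2 at 4.32 kb from the start (130887292 to 130887570, 21 and 26) and at the transcript end (131028162 to 131028573, 21 and 25). Peaks in intron 6 (130962726 to 130964004) and coding exon 12 (131011593 to 131012486) each held 21 KO and 19 WT reads, and one in intron 9 (130998737 to 130999355) held 13 and 18. In each of these 6 peaks the intervals of all 4 contrasts spanned 1. A pair of weak Nrp1 peaks stood on opposite sides of 1 for Tfh4 over Tfh214. The intron 2 peak (130927418 to 130928347) held 15 reads in Tfh4, 1 in Tfh214 and 12 in Tfh21, a Tfh4 over Tfh214 ratio of 11.9 (1.83 to 501). The coding exon 6 peak (130957432 to 130958125) held 4 reads in Tfh4, 17 in Tfh214 and 3 in Tfh21, a ratio of 0.187 (0.0457 to 0.572) for Tfh4 over Tfh214.

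Capg encodes a protein that caps actin filaments and is carried at high level by effector regulatory T cells. Its 4 peaks held 64, 32 and 52 reads in KO Tfh4, KO Tfh214 and KO Tfh21 and 57, 66 and 52 reads in WT Tfh4, WT Tfh214 and WT Tfh21. In CPM this was 51.7, 40.1 and 49.5 in KO and 41.5, 51.9 and 46.3 in WT, with no genotype or population set apart. Pooled KO over WT was 1.03 (0.823 to 1.29) by CPM and 0.908 (0.725 to 1.14) after scaling. The peak in an untranslated 5' exon at 72502439 to 72503168 (chromosome 6) supplied 198 of 323 reads and was the other peak with enough reads for the peak-wise model. It held 32, 23 and 39 reads in KO Tfh4, KO Tfh214 and KO Tfh21, and 33, 37 and 34 in WT Tfh4, WT Tfh214 and WT Tfh21. There the limma log2 difference was -0.41 ± 0.22 for Tfh4 minus Tfh21 (adjusted p = 0.208; median of all tested peaks -0.27). For KO minus WT it was 0.12 ± 0.18 (limma adjusted p = 0.694). Scaled by median of ratios the KO minus WT value was -0.06. A peak in another untranslated 5' exon (72500730 to 72500957) held 12 KO and 18 WT reads. The start-site peak (72494329 to 72494652) held 10 KO and 27 WT reads, a ratio of 0.452 (0.195 to 0.963), but the peak that abuts it (72494652 to 72494968) held 32 and 26. Joined, an alternative chosen after the data were seen, they held 42 KO and 53 WT reads, a ratio of 0.967 (0.629 to 1.48). The difference at the start-site peak was thus not present in the joined region.

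Itgae encodes the alpha chain of CD103, the integrin that binds E-cadherin on epithelium. Its 9 peaks held 25, 18 and 16 reads in KO Tfh4, KO Tfh214 and KO Tfh21 and 25, 25 and 21 reads in WT Tfh4, WT Tfh214 and WT Tfh21. That is 20.2, 22.5 and 15.2 CPM in KO and 18.2, 19.7 and 18.7 CPM in WT. KO over WT was 1.01 (0.705 to 1.45) by CPM and 0.893 (0.621 to 1.28) after scaling. Tfh4 over Tfh21 was 1.12 (0.721 to 1.77). The coding exon 21 peak (chromosome 11, 72942683 to 72943089) held 12 reads in Tfh4 and 2 in Tfh21, a ratio of 4.99 (1.11 to 45.9).

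Set together, 0 of the 6 tested genes and 0 of the 2 tested peaks were called by limma at an adjusted p of 0.05 in any of the 4 contrasts, and edgeR and DESeq2 called 0 as well. For KO minus WT, 6 of all 10825 genes (0.0554%) and 77 of 8986 peaks (0.857%) were called. Over all genes, limma called 0 (0%) for Tfh4 minus Tfh21, Tfh214 minus Tfh21 and Tfh4 minus Tfh214, where 1377, 552 and 1093 genes had an unadjusted p under 0.05. edgeR called 1, 0 and 0 of them and DESeq2 0 in each. Over all peaks, 118 (1.31%), 0 (0%) and 178 (1.98%) were called for those 3 contrasts in that order. For Tfh214 minus Tfh21, 345 peaks had an unadjusted p under 0.05 with limma, and edgeR and DESeq2 called 0. Of the 6 genes, 0 had an unadjusted limma p under 0.05 for KO minus WT (11.1% of all genes) and Tfh4 minus Tfh214 (10.1%). For Tfh4 minus Tfh21 (Ctla4; 12.7% of all genes) and Tfh214 minus Tfh21 (Ikzf4; 5.1%) it was 1 each. The lowest adjusted p in the main model was 0.208, for the strong Capg peak. The median log2 difference of the 6 genes was 0.02 for KO minus WT, against 0.07 for all genes. It was -0.08 against -0.11 for Tfh4 minus Tfh21, -0.14 against -0.03 for Tfh214 minus Tfh21 and -0.04 against -0.08 for Tfh4 minus Tfh214.

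By the pooled intervals, which need no minimum of reads and cover counting error only, 1 of the 9 genes was higher in KO (Ikzf2) and 0 were lower, where 5.46% of all genes were higher and 5.11% lower. For Tfh4 over Tfh21, 0 were higher (5.6% of all genes) and 2 lower (Ctla4 and Ikzf2; 6.7%). For Tfh214 over Tfh21, 0 were higher (2.99%) and 3 lower (Ctla4, Ikzf2 and Ikzf4; 2.85%). For Tfh4 over Tfh214, 1 was higher (Ikzf4; 4.69%) and 0 were lower (4.79%). After median-of-ratios scaling these counts were others. For KO over WT, 0 were higher (0.502% of all genes) and 1 lower (Nrp1; 13.9%). For Tfh4 over Tfh21, 0 were higher (18.7%) and 0 lower (0.335%), and for Tfh214 over Tfh21, 0 were higher (4.41%) and 0 lower (1.62%). For Tfh4 over Tfh214, 2 were higher (Ikzf2 and Ikzf4; 14.8%) and 0 lower (0.576%). The population contrasts share libraries, so these counts are not independent of each other. In single pairs of libraries, 0 members differed by at least 1.5-fold on the log2(CPM + 1) scale between KO and WT. Of all genes whose higher library held 20 reads or more, 11.7% did so in Tfh4, 10.9% in Tfh214 and 9.78% in Tfh21. Between populations, 2 members were lower in WT Tfh214 than in WT Tfh21 (Ctla4 and Ikzf4), where 8.56% of all genes passed that fold in either direction. Ikzf4 was higher in WT Tfh4 than in WT Tfh214, as 1 member (12.5% of all genes, either direction). No member passed it for WT Tfh4 against WT Tfh21 (10.5% of all genes), KO Tfh4 against KO Tfh21 (15%), KO Tfh214 against KO Tfh21 (8.1%) or KO Tfh4 against KO Tfh214 (12.3%).

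Peak by peak, the interval for KO over WT lay above 1 at 3 of the 138 peaks and below 1 at 5, where 1.93% and 4.04% of all peaks did. The 3 higher ones were weak peaks of Ikzf2 (intron 3, 69686355 to 69686795, 13 KO and 4 WT reads, and 69701572 to 69701835, 10 and 3) and Nrp1 (intron 12, 131015053 to 131015305, 11 and 3). Of the lower ones, 1 lay in Ikzf2 intron 3 (69687563 to 69688210). It held 5, 3 and 2 reads in KO Tfh4, KO Tfh214 and KO Tfh21 and 9 in each WT library, a ratio of 0.452 (0.195 to 0.963). The others were the Capg start-site peak, the Ikzf4 coding exon 3 peak and a pair in Nrp1 (130960316 to 130960721, 1 KO and 9 WT reads, and 130965488 to 130966066, 2 and 12). For Tfh4 over Tfh21, 2 peaks lay above and 3 below 1 (2.58% and 2.07% of all peaks). Beside those named above, these were an Nrp1 peak (130942188 to 130942511, 9 and 1 reads) and an Ikzf2 peak (69668166 to 69668507, 1 and 9 reads). For Tfh214 over Tfh21, 2 lay above and 4 below (1.61% and 1.91%). They were all in Ikzf2 and Nrp1, the clearest of them the Nrp1 intron 3 peak (130948105 to 130948977) with 5 and 18 reads, a ratio of 0.292 (0.0846 to 0.815). Another low one lay in Ikzf2 (69603513 to 69604029, 4 and 14 reads), and a high one in Nrp1 (130991636 to 130992200, 9 and 1). For Tfh4 over Tfh214, 1 lay above and 1 below (2.99% and 2.36%), both in Nrp1. The members' shares were 2.17% higher and 3.62% lower for KO over WT, near the background, 1.45% and 2.17% for Tfh4 over Tfh21 and 1.45% and 2.90% for Tfh214 over Tfh21. For Tfh4 over Tfh214 they were 0.725% in each direction, on 1 peak each, below the background.

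**Figure D4:**
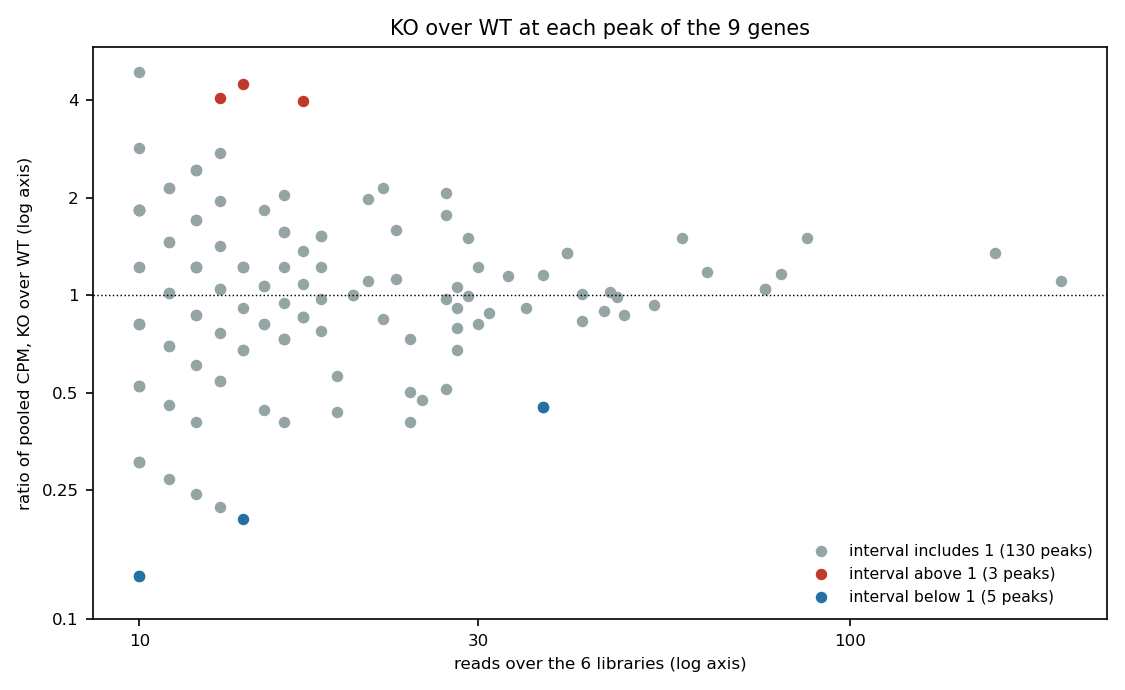
Ratio of pooled CPM, KO over WT, at each of the 138 peaks against its reads over the 6 libraries, both on log axes. Red and blue points are the 3 and 5 peaks whose exact 95% interval lies above or below 1, and some points coincide. The spread of ratios narrows as reads increase, and the peaks past 1 in either direction held at most 37 reads.

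Among the genes of the same pathway, 26 regulators known to act at the Foxp3 locus all had peaks and passed the minimum of reads, and 0 of them were called in any contrast. An unadjusted limma p under 0.05 was found in 4 for KO minus WT (11.1% of all genes), 5 for Tfh4 minus Tfh21 (12.7%), 1 for Tfh214 minus Tfh21 (5.1%) and 2 for Tfh4 minus Tfh214 (10.1%). The list's median log2 difference for KO minus WT was 0.08, against 0.07 for all genes. The largest was at Nr4a2, an orphan nuclear receptor induced by T cell receptor signals, with 76.7, 82.6 and 97.0 CPM in KO Tfh4, KO Tfh214 and KO Tfh21 and 54.6, 77.8 and 72.1 CPM in WT Tfh4, WT Tfh214 and WT Tfh21. Its log2 difference was 0.33 ± 0.13 (limma adjusted p = 0.345). Ets1, which binds a conserved enhancer of Foxp3, followed at 0.29 ± 0.10 (limma adjusted p = 0.295), and Rel, the NF-kappaB subunit c-Rel, at 0.28 ± 0.11 (limma adjusted p = 0.356). For Tfh4 minus Tfh21 the list's median was -0.16, against -0.11 for all genes, and the largest values were -0.37 ± 0.13 at Tet3, a DNA demethylase (limma adjusted p = 0.272), -0.37 at Nr4a2 and -0.36 at Ets1. For Tfh214 minus Tfh21 the median was -0.12 against -0.03, with the largest values at Nr4a3 (-0.28), Bach2 (0.27) and Tet2 (-0.27). For Tfh4 minus Tfh214 it was -0.09 against -0.08, with the largest values at Nr4a3 (0.39), Smad4 (-0.33) and Nr4a2 (-0.30).

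Of 29 other symbols listed for surface and effector genes of regulatory T cells, 27 had a peak and 17 passed the minimum of reads. In any contrast, 0 were called. The list holds both Izumo1r and Folr4, which are names of the same gene. An unadjusted limma p under 0.05 was found in 4, 6, 1 and 5 of the 17, in the same order of contrasts. Of all genes, 11.1%, 12.7%, 5.1% and 10.1% had one. Their median log2 difference was 0.17 for KO minus WT (all genes 0.07), -0.20 for Tfh4 minus Tfh21 (-0.11), -0.11 for Tfh214 minus Tfh21 (-0.03) and -0.25 for Tfh4 minus Tfh214 (-0.08). Tnfrsf1b, which encodes TNF receptor 2, had 126, 131 and 134 CPM in KO Tfh4, KO Tfh214 and KO Tfh21 and 83.7, 116 and 101 CPM in WT Tfh4, WT Tfh214 and WT Tfh21. Every KO library lay above every WT library by CPM, with a log2 difference of 0.39 ± 0.11 (limma adjusted p = 0.235). How many of all genes show that order was not computed. The next largest for KO minus WT were Izumo1r (0.38), which encodes folate receptor 4, and Nt5e (0.33), which encodes CD73. For Tfh4 minus Tfh21 the largest log2 difference was at Tgfb1, which encodes TGF-beta 1, at -0.59 ± 0.18 (limma adjusted p = 0.223). Its KO Tfh4 library stood at 47.6 CPM, against 88.9 and 102 CPM in KO Tfh214 and KO Tfh21 and 77.9, 77.1 and 83.7 CPM in WT Tfh4, WT Tfh214 and WT Tfh21, so that the 1 KO library stood apart. Tigit, an inhibitory receptor that binds CD155, had 58.1, 70.1 and 76.1 CPM in KO and 48.1, 73.1 and 80.2 CPM in WT in that order of populations, a log2 difference of -0.55 ± 0.16 for Tfh4 minus Tfh21 (limma adjusted p = 0.223), and Izumo1r followed at -0.39. Entpd1, which encodes CD39, an enzyme that degrades extracellular ATP, was lowest in Tfh214 in both genotypes, as Ikzf4 was. It had 95.3, 58.9 and 105 CPM in KO and 79.4, 68.4 and 95.3 CPM in WT, a log2 difference of -0.65 ± 0.16 for Tfh214 minus Tfh21 (limma adjusted p = 0.867) and 0.45 ± 0.16 for Tfh4 minus Tfh214 (limma adjusted p = 0.390). Izumo1r (-0.43) and Icos (0.32) came next for Tfh214 minus Tfh21, and Ikzf1 (-0.44) and Tgfb1 (-0.44) for Tfh4 minus Tfh214.

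Among themselves the members did not share one pattern over the 6 libraries. Across these libraries, which share their depth and scaling, Pearson's r of log2(CPM + 1) was 0.77 between Ikzf2 and Ctla4, -0.73 between Ikzf2 and Itgae and -0.01 between Ikzf2 and Nrp1, as a description only. By CPM, the mean profile of the 6 tested genes was highest in Tfh21, at 0.10 in KO and 0.10 in WT on the centred log2 scale. It was 0.01 and -0.07 in KO Tfh4 and WT Tfh4, and -0.02 and -0.11 in KO Tfh214 and WT Tfh214. For Tfh4 minus Tfh21 the median of all genes was also below 0 by CPM (-0.11). After median-of-ratios scaling that median was 0.16. The scaled difference was 0.09 at Ikzf2, 0.23 at Ikzf4, 0.16 at Nrp1, 0.23 at Capg, 0.44 at Itgae and -0.27 at Ctla4. At Ikzf2, Ikzf4, Nrp1 and Capg the direction thus turned. Of 10819 other genes, those whose summed CPM was most like the members' mean profile over the 6 libraries were BC030336 (Pearson's r 0.988), Prkab2 (0.987), Rps7 (0.984), Irgc1 (0.984) and Man2b1 (0.983).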

How the data were processed

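Chromatin accessibility was measured by ATAC-seq in 6 libraries, 1 for each combination of genotype (KO, WT) and population (Tfh4, Tfh214, Tfh21). The values were CPM per peak as deposited by the authors, with each peak's class, nearest start site and gene symbol. The submitters' processing notes name Bowtie 1.3.0, MACS2 2.0, HOMER and build mm9. Their roles, and whether peaks were called per library or on pooled reads, are not given in the sources used here. In the annotation the symbol stands in the field headed as the gene ID, and it was read as the symbol.

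Because CPM values fall on steps worth 1 read, dividing by that step gave whole reads (within 0.02 of a read for at least 99.9988% of values, with at most 3 values off per library). Peaks were summed per symbol. The main test was limma 3.58.1 (R 4.3.3) with a variance trend on log2(CPM + 1), with genotype and population as additive terms. It was run over all 10825 genes or 8986 peaks whose mean reached 20 reads per library, and p-values were adjusted by Benjamini-Hochberg and called under 0.05. A fold change on that scale understates the change of low genes. With 1 library per group, the populations stand in as replicates of the genotype effect and the genotypes as replicates of the population effect. The model leaves 2 residual degrees of freedom for each gene or peak, and limma moderates each variance towards a trend over all those tested. Its SEs and p-values thus rest on that shared spread over the libraries as well as on the gene's own. They do not measure a spread over animals. An effect of genotype cannot be told apart from one of the mice pooled or of library preparation. Ratios of pooled reads carry exact binomial 95% intervals, and single values exact Poisson ones. Both cover counting error alone and no spread between libraries. Reads copied by PCR do not stand for separate molecules, so where copies remain the intervals are too narrow.

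Alternatives were median-of-ratios scaling, a pseudocount of 0.5, a minimum of 10 reads or none, no variance trend, edgeR 4.0.16 and DESeq2 1.42.0 on the recovered reads, left-out libraries, and other ways to pick a gene's peaks. Joining abutting peaks and describing peaks within 10 kb of a start that carry another symbol or none were chosen after the data were seen. All 9 genes were described, with the peaks of at least 30 reads, the strongest peak, the start-site peaks and the peaks whose pooled interval excluded 1. From the related lists, the genes called and the 3 with the largest differences in each contrast were named. The 9 genes and the lists were chosen with earlier results of these data known. The tests were run on simulated reads with known changes. Those reads held counting error alone, with no spread between libraries and no shift of the start-site share. They cannot show how the tests behave where these are present. Python 3.11.15, numpy 2.4.6, scipy 1.17.1, pandas 2.3.3 and matplotlib 3.10.9 were used.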

Additional observations from a re-analysis of the deposited data

How the results depend on the processing

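No member was called in any setting, and the lowest adjusted p was 0.119 (limma, Nrp1, KO minus WT, scaled by median of ratios). Over the 32 log2 differences of tested members (24 of genes, 8 of peaks), the direction turned in 15 under median-of-ratios scaling, in 10 with edgeR and in 9 with DESeq2, and in 0 with a pseudocount of 0.5, another minimum of reads or no trend. Under median-of-ratios scaling the log2 difference of Ikzf2 turned to -0.0316 for KO minus WT (pooled ratio 0.994) and to 0.0922 for Tfh4 minus Tfh21 (pooled ratio 1.06). That of the strong Capg peak turned to -0.0595 for KO minus WT under that scaling, to -0.0535 with edgeR and to -0.0587 with DESeq2. Member peaks whose interval excluded 1 for Tfh4 over Tfh214 numbered 5 under that scaling, against 2. Members at least 1.5-fold apart numbered 1 each for KO Tfh4 over KO Tfh21, KO Tfh4 over KO Tfh214 and WT Tfh214 over WT Tfh21, against 0, 0 and 2. With abutting peaks joined (138 peaks into 127 regions, an alternative chosen after the data were seen), the counts past 1 were 6, 7, 7 and 2 for KO over WT, Tfh4 over Tfh21, Tfh214 over Tfh21 and Tfh4 over Tfh214, against 8, 5, 6 and 2. For these counts of scaled peaks, scaled single pairs and joined regions, the shares over all peaks or genes were not computed. They therefore have no background to be read against. The counts over all genes and peaks depend far more on the processing. For KO minus WT, 6 genes became 255 under median-of-ratios scaling, 11 with no minimum, 0 without the trend (1202 at an unadjusted p under 0.05 with it), 1 with DESeq2, 120 with the highest peak, 72 with start-site peaks and 3 with the other peaks. For Tfh4 minus Tfh21, 0 genes became 561 under that scaling, 1 with no minimum, 1 with edgeR, 222 with the highest peak and 222 with start-site peaks. For Tfh4 minus Tfh214, 0 genes became 183 under that scaling, 1 with no minimum, 182 with the highest peak and 156 with start-site peaks. For peaks, KO minus WT gave 77, and 2 under that scaling, 40 at a minimum of 10 reads, 17 with no minimum, 0 without the trend, 1 with edgeR and 0 with DESeq2 (1885, 218 and 2 at an unadjusted p under 0.05 with limma, edgeR and DESeq2). Tfh4 minus Tfh21 gave 118 peaks, and 0, 77, 8, 0, 0 and 0 in the same order, and Tfh4 minus Tfh214 gave 178 peaks, and 0, 111, 9, 0, 0 and 0 (2341 and 1999 at an unadjusted p under 0.05 with limma). Leaving out libraries gave 1 to 69 genes for KO minus WT (69 without Tfh4), 0 to 121 for Tfh4 minus Tfh21 (121 without WT Tfh4), 0 to 8 for Tfh214 minus Tfh21 (8 without KO Tfh4) and 0 to 15 for Tfh4 minus Tfh214. For peaks it gave 2 to 256 (256 without Tfh214), 0 to 633, 0 to 2 and 4 to 252 for the same contrasts. The cause of these shifts was not tested. Start-site peaks alone left 0 members with enough reads, so that setting gave no member value. No paired analysis was possible because the labels give no replicate numbers to pair by. The additive population term already sets KO against WT within each population. The members' values are limited by 1 library per group, by the scaling and by depth. Foxp3 held 14 reads over the 6 libraries, and 113 of the 138 peaks held under 30.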
